A study of Drosophila melanogaster with 35 samples.

Results

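The cytosolic ribosomal protein genes of Drosophila melanogaster encode the protein components of the ribosomes that translate nuclear mRNA. They were chosen by gene symbol: every row of the authors' 2 expression tables whose symbol begins with RpS or RpL and a digit, or with RpLP, together with sta, which encodes the small-subunit protein known in other animals as RPSA. The genes of mitochondrial ribosomal proteins were left out. The rule found 93 genes among 15163 in the BG3C2 table and the same number among 15061 in the brain table. It used no measured value.

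BG3C2 is a cell line from the Drosophila larval central nervous system. The study concerned DMAD, a Tet-family protein encoded by CG43444, and N6-methyladenine (6mA) in DNA. In the cell line, DMAD was knocked down for 144 h with a 580 bp dsRNA, and the control cells are labelled Wildtype, with no control dsRNA described. The brains are labelled Wildtype or DMAD-knockout, and the brain expression table names its groups FR.WT and FR.KO, which were taken to be these. The labels give no strain, allele, age or sex for them and no number of brains per sample. RNA was sequenced from 3 control and 3 knockdown BG3C2 samples and from 2 control and 2 knockout brain samples by the sample titles, although the protocol speaks of duplicates. Each expression table holds 1 FPKM (fragments per kilobase of transcript, scaled to the number of mapped fragments) per gene and group, which is the authors' value over the pooled samples, with no spread between samples.

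The gene that was targeted, CG43444, had 65.9 FPKM in control and 34.9 FPKM in knockdown BG3C2 cells, a log2 ratio of −0.91. In the authors' deposited table its p-value was 0.0058 and its q-value 0.706. In brain it had 39.8 FPKM in the control and 40.4 FPKM in the knockout group, so the brain labels could not be checked from its level. Of 10 neuronal marker genes, 7 were under 1 FPKM in both BG3C2 groups, among them brp, Syt1 and n-syb, and none was in brain. Most of these markers were therefore near 0 in the cell line, although elav was at 12.2 FPKM and Syx1A at 24.1 FPKM in the control cells. The origin of the line was not tested by them.

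A eukaryotic ribosome holds a small subunit, which reads the mRNA, and a large subunit, which forms peptide bonds and carries a flexible stalk of acidic P proteins that recruits translation factors. Its proteins are needed in nearly equal amounts, and their genes are among the most highly transcribed in growing cells. In Drosophila, loss of 1 copy of many of these genes causes the Minute phenotype of slow development and short bristles. Several of the proteins have a second gene, and some of those copies are known in flies mainly from the germline.

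Of the 93 genes, 82 were at 100 FPKM or more in the control group of both tables, and the other 11 were below that in both. The 82 comprised 33 small-subunit genes, 46 large-subunit genes and the 3 stalk genes RpLP0, RpLP1 and RpLP2. One gene counted with the large subunit, RpL24-like, is related to a ribosome assembly factor in yeast. All 93 genes together made up 31.4% of the summed FPKM of control BG3C2 cells and 15.7% of that of control brain. They held 75 of the 100 highest genes in control BG3C2 cells and 50 of the 100 highest in control brain.

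RpL41 and RpL39, which encode the smallest proteins of the large subunit, stood highest among the members in every group. RpL41 was at 17141 FPKM in control and 19081 FPKM in knockdown BG3C2 cells, and at 4318 FPKM in control and 3665 FPKM in knockout brain. RpL39 was at 10814 and 12245 FPKM in the cell line and at 3872 and 3259 FPKM in brain, in the same order. Both supplied 11.8% of the members' FPKM in control BG3C2 cells and 8.89% in control brain. FPKM divides by transcript length, so very short transcripts such as these depend most on how that length was set. Among the other members in control BG3C2 cells, RpL23A was next with 4578 FPKM, followed by RpS29 with 4325, RpS30 with 4219, RpL29 with 4029 and RpL36A with 3996 FPKM. In control brain the order was another one, with RpL29 at 3110 FPKM, RpS25 at 2237, RpL5 at 2221, RpL36 at 2065, RpS30 at 2050 and RpL15 at 1779 FPKM. RpL5 carries 5S rRNA into the large subunit, and RpS30 is made as a fusion to a ubiquitin-like protein.

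The median of the 82 genes was 2651 FPKM in control BG3C2 cells and 973.6 FPKM in control brain. The tables were normalised separately, so the step between them is set by that scaling as well as by expression. With that limit, 81 of the 82 genes had the higher FPKM in BG3C2 cells, and the median ratio of BG3C2 to brain was 2.62. The ratio was largest for RpL23A at 5.47, followed by RpL30 at 4.80 and RpS5a at 4.48. It was smallest for RpL24-like, the only gene of the 82 with the higher value in brain, at 0.556. RpS14b, RpL22, RpL5 and RpL29 came next, with ratios of 1.11, 1.16, 1.24 and 1.30. Across the 82 genes the log2 control levels of the tables had a Pearson correlation of 0.78 and a Spearman correlation of 0.70, given as a description, since all points share the same libraries.

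**Figure D1:**
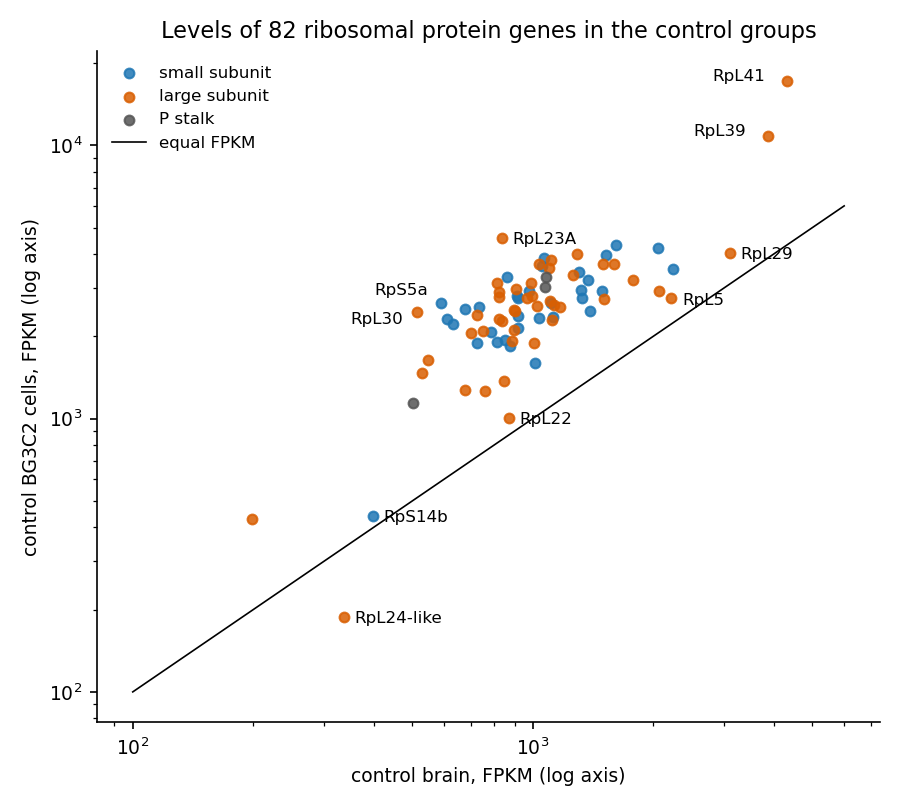
FPKM of the 82 ribosomal protein genes at 100 FPKM or more in control brain (x axis, log scale) and control BG3C2 cells (y axis, log scale), 1 point per gene, with the line of equal FPKM. RpL24-like is the only point under the line, and RpL41 and RpL39 have the highest values on both axes, standing far apart from the rest in BG3C2 cells.

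In BG3C2 cells the ribosomal protein genes sat slightly higher in the knockdown than in the control group, by a nearly uniform amount. Cuffdiff tested 87 of the 93 genes. None of them passed q < 0.05 in the authors' deposited table, where 0.254% of all tested genes did. None had an unadjusted p-value under 0.05 in the authors' deposited table either, against 2.31% of all tested genes, and the lowest p-value among the members was 0.318. By direction, 82 of the 87 had a log2 ratio of knockdown over control above 0, against 48.4% of all tested genes. The median log2 ratio was 0.13, with quartiles of 0.09 and 0.15, and the median of all tested genes was −0.01.

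The size of this shift depended on the scaling of the table. The summed FPKM of the knockdown group exceeded that of the control group by 0.12 on the log2 scale. Dividing each group by its sum lowered every log2 ratio by that amount, which put the members' median at 0.01 and left 50 of 87 above 0. The members' share of the summed FPKM was 31.4% in control and 31.7% in knockdown cells. Other genes at a mean of 500 FPKM or more had a median log2 ratio of 0.14 over 128 genes, and those among them with a locus of up to 3000 bp had 0.18 over 43 genes. The 79 members in that range had 0.13. Their quartiles were 0.06 apart, against 0.29 for the 128 other genes.

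Among the 82 genes at 100 FPKM or more, RpLP0, the scaffold of the stalk, was the only one below 0, with 1142 FPKM in control and 1084 FPKM in knockdown cells and a log2 ratio of −0.07. RpLP1 had 3288 and 3336 FPKM, and RpLP2 had 3042 and 3369 FPKM, with log2 ratios of 0.02 and 0.15. The highest ratios belonged to RpL38, whose protein lies on the surface of the large subunit, at 3567 and 4286 FPKM with a log2 ratio of 0.27, and to RpL24-like, at 187.8 and 225.5 FPKM with 0.26. RpL5, RpL10 and RpS21 followed, with log2 ratios of 0.24, 0.22 and 0.22. RpL10 belongs to the last proteins to join the large subunit. The median log2 ratio was 0.13 for the 33 small-subunit genes and 0.13 for the 46 large-subunit genes. It lay between 0.10 for the 17 genes of 2L and 0.14 for the 15 genes of the X chromosome among the 5 major arms.

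In brain the same genes sat lower in the knockout than in the control group. Of 86 tested members, 82 had a log2 ratio of knockout over control below 0, against 51.2% of all tested genes, and these 82 were the genes at 100 FPKM or more. Their median was 973.6 FPKM in the control and 775.4 FPKM in the knockout group, and their log2 ratios ran from −0.54 to −0.13. None passed q < 0.05 in the authors' deposited table, where 0.762% of all tested genes did. An unadjusted p-value under 0.05 in the authors' deposited table was held by 2 of the 86, against 3.51% of all tested genes. The median log2 ratio of the 86 was −0.30, with quartiles of −0.35 and −0.24. The median of all tested genes was −0.01.

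RpL18, of the large subunit, had the lowest log2 ratio at −0.54, with 1009 FPKM in the control and 695.8 FPKM in the knockout group. Its p-value in the authors' deposited table was 0.02505 and its q-value 0.999742. RpS9, of the small subunit, had 1122 and 808.4 FPKM and a log2 ratio of −0.47, and its p-value in the authors' deposited table was 0.0464. RpS29 had 1610 and 1158 FPKM, and sta had 854.1 and 617.7 FPKM. Their log2 ratios were −0.48 and −0.47, with p-values of 0.0832 and 0.0536 in the authors' deposited table. At the other end of the 82 stood RpL24-like, with 337.8 and 308.9 FPKM and a log2 ratio of −0.13, RpL23A with −0.14, RpLP0 with −0.15, RpS3A with −0.16 and RpL35A with −0.16. Small-subunit genes had a median log2 ratio of −0.32 and large-subunit genes one of −0.27, and the ranges of both classes overlapped widely.

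**Figure D2:**
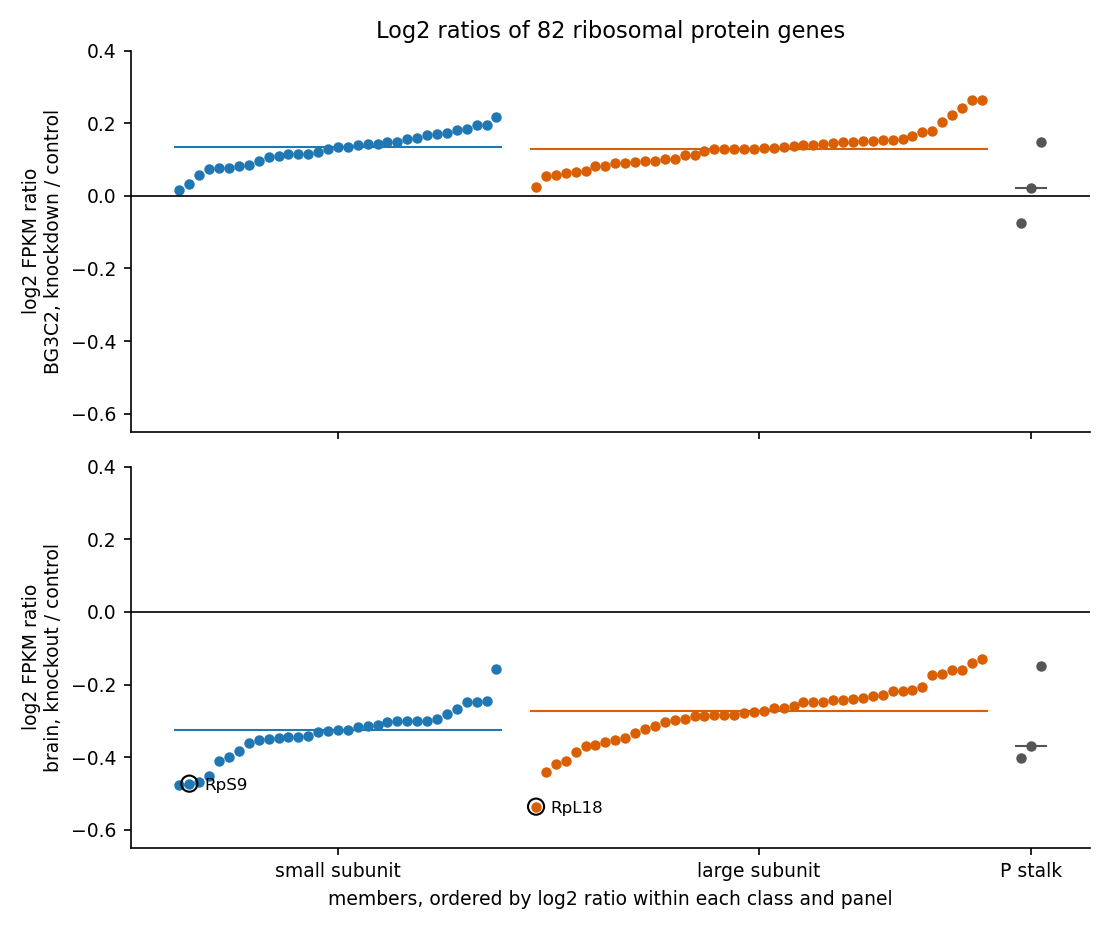
Log2 ratio of FPKM in the perturbed over the control group for the 82 ribosomal protein genes at 100 FPKM or more, 1 point per gene, in BG3C2 cells (top) and brain (bottom). Horizontal coloured lines are class medians, and circled points had an unadjusted p-value under 0.05 in the authors' deposited table: 81 of 82 points lie above 0 in the cell line, and all 82 lie below 0 in brain.

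The brain shift also moved with the level of expression across the table. The sum of all FPKM was lower in the knockout group by 0.12 on the log2 scale, and dividing each group by its sum put the members' median at −0.18. The members' share of the summed FPKM was 15.7% in the control and 13.8% in the knockout group, and they held 44 of the 100 highest genes in the knockout group. Other genes at a mean of 10 to 100 FPKM had a median log2 ratio of −0.01, those at 100 to 500 FPKM had −0.09, and those at 500 FPKM or more had −0.11 over 118 genes. With a locus of up to 3000 bp as well, the median was −0.19 over 44 genes, of which 39 were below 0. The 77 members at a mean of 500 FPKM or more had a median of −0.30. The part of expression level in the members' shift was not tested.

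Markers of fat body, a tissue that surrounds the brain in the fly head, were mostly lower in the knockout group as well. Their summed FPKM over 10 genes was 1766 in the control and 747.9 in the knockout group. Of the 8 tested, 7 were below 0 and 2 passed q < 0.05 in the authors' deposited table, Yp1 and Yp2. None was at 0 in the control group. The yolk protein genes Yp1, Yp2 and Yp3 supplied 1656 and 672 FPKM of these sums, and the other 7 markers 109.4 and 75.9 FPKM, with 4 of 5 tested below 0. Neuronal markers summed to 3752 and 3632 FPKM, with 9 of 10 below 0 and a median log2 ratio of −0.10. Glial markers summed to 3961 and 3862 FPKM, while 6 of 8 were above 0 and their median was 0.07. Muscle markers summed to 567.1 and 624.2 FPKM, with 8 of 10 above 0. Of all tested genes in brain 51.2% were below 0 and 0.762% passed q < 0.05 in the authors' deposited table. Other genes at a mean of 100 to 500 FPKM had a median log2 ratio of −0.09, with 73.05% below 0. The neuronal markers had a median of 197.1 FPKM in the control group, and their median log2 ratio lay near that of this range. The part of tissue makeup in the lower ribosomal protein values was not tested, and in whole tissue fewer cells of a type and less RNA per cell cannot be told apart. The labels give no sex for the brains, so the part of sex in the yolk protein values could not be tested either. In BG3C2 cells all 10 fat body markers were under 1 FPKM in both groups. Testis markers summed to 42.8 and 36.2 FPKM in BG3C2 cells and to 87.2 and 92.6 FPKM in brain. In the cell line and in brain alike, 8 of 12 were under 1 FPKM in both groups. The gene bol alone supplied 79.0 and 79.5 FPKM of the brain sums. CycB3, at 22.1 and 18.2 FPKM, and mia, at 12.6 and 11.2 FPKM, supplied most of the BG3C2 sums. CycB3 is a cyclin gene that was not in the marker list as planned. The BG3C2 sums are therefore no measure of testis transcripts.

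**Figure D3:**
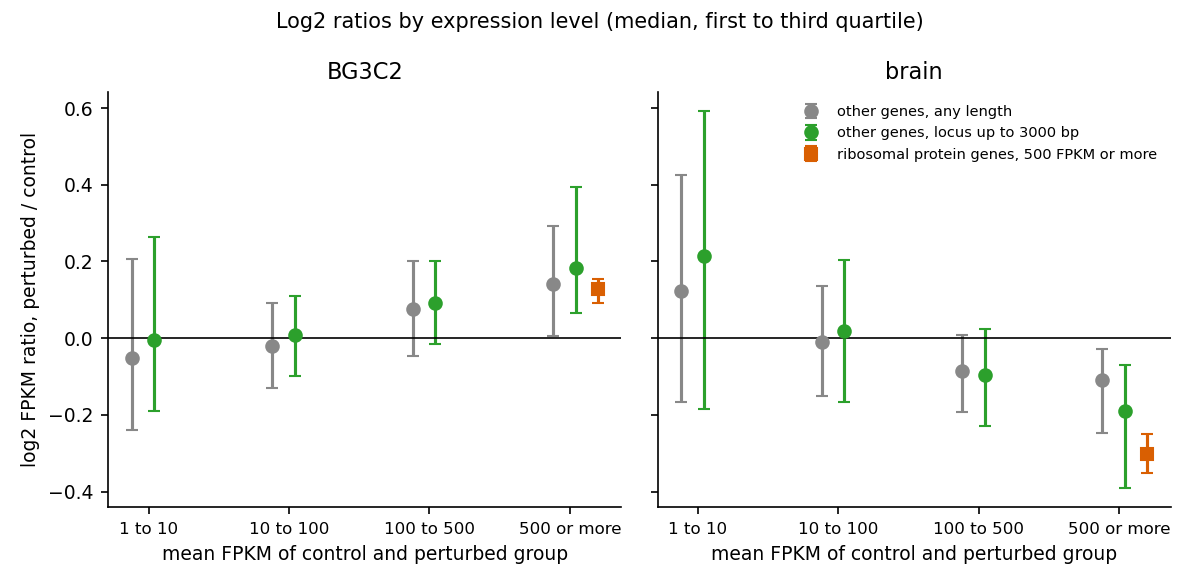
Log2 ratio of FPKM in the perturbed over the control group (y axis) for other tested genes in 4 ranges of mean FPKM (x axis), over all locus lengths (grey) and for loci up to 3000 bp (green), with the ribosomal protein genes at 500 FPKM or more (orange square). Points are medians and bars run from the first to the third quartile: in BG3C2 cells the members lie level with other genes of their range, and in brain they lie lower, at −0.30 against −0.11 for genes of any length and −0.19 for short loci.

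A gene's ratio in the cell line did not follow its ratio in brain. Over the 82 genes the log2 ratios of BG3C2 cells and brain had a Pearson correlation of 0.02 and a Spearman correlation of −0.01. These tables share no samples. RpL18, lowest in brain, had 0.05 in the cell line. Within brain the log2 ratio had a Pearson correlation of −0.24 with log2 control FPKM, a value that shares the control level with the ratio, and of 0.05 with log2 locus length.

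The 11 genes under 100 FPKM were mostly second copies. In brain the 4 tested ones were all above 0, as were 1228 of 1961 other genes at a mean of 1 to 10 FPKM and 2545 of 5305 at 10 to 100 FPKM. RpS5b had the highest value, with 1.95 FPKM in the control and 5.11 FPKM in the knockout group and a log2 ratio of 1.39. Its p-value in the authors' deposited table was 0.1113, and it held 0.329% and 1.02% of the summed FPKM of RpS5a and RpS5b in those groups. RpS5b is known in flies from the ovary. RpS15Ab had 20.9 and 23.9 FPKM, RpLP0-like had 11.3 and 12.6 FPKM, and RpL7-like had 38.9 and 41.3 FPKM. RpLP0-like and RpL7-like are, like RpL24-like, related to ribosome assembly factors of yeast. In BG3C2 cells RpL7-like had 99.6 and 112.2 FPKM and a log2 ratio of 0.17. The other 4 tested ones were below 0 there, as were 56.7% of other genes at a mean of 1 to 10 FPKM and 55.1% at 10 to 100 FPKM. They were RpLP0-like with −0.04, RpS19b with −0.14, RpS15Ab with −0.25 and RpS10a with −0.56, the last 2 at 43.1 and 1.95 FPKM in the control.

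The untested members were at or near 0. In BG3C2 cells RpL10Aa and RpL37b were listed at 0 in both groups, and RpL22-like, RpS28-like, RpS28a and RpS5b were under 1 FPKM. In brain RpL22-like, RpL37b, RpS28-like and RpS19b were listed at 0 in both groups. RpL10Aa was at 0 and 0.269 FPKM, RpS28a at 0 and 2.94 FPKM, and RpS10a at 1.75 and 1.16 FPKM.

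Where both copies of a protein's gene were transcribed, the share of the lower one differed between pairs. RpS14a and RpS14b lie 220 bp apart on the X chromosome and are near copies, so how reads were split between them is uncertain. RpS14b held 21.7% of the pair's FPKM in control BG3C2 cells and 28.2% in control brain. RpL34a held 25.3% and 22.7% beside RpL34b. RpS15Ab held 2.22% and 2.81% beside RpS15Aa. RpL24-like stood at 12.03% and 28.5% of its sum with RpL24, the widest step between cell line and brain of these pairs. RpL7-like and RpLP0-like stood at no more than 4.85% of theirs. As RpL24-like, RpL7-like and RpLP0-like are related to assembly factors, their shares do not measure the use of a second copy. RpS10a, RpS19b, RpS28a, RpS28-like, RpL10Aa, RpL22-like and RpL37b each held under 1% of their pair in both control groups. Between control and knockout brain the share of RpS14b was 28.2% and 28.1%, with a log2 ratio of −0.34 for both copies. The share of RpL34a was 22.7% and 24.5%, that of RpS15Ab 2.81% and 4.21%, and that of RpL24-like 28.5% and 30.6%. In BG3C2 cells RpS14b held 21.7% and 21.4%, RpL34a 25.3% and 24.9%, and RpL24-like 12.03% and 13.0% in control and knockdown.

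Genes that act around the ribosome were followed in 5 lists, none of which had a gene at q < 0.05 in the authors' deposited tables. Median control levels in BG3C2 cells and brain were 845.3 and 369.8 FPKM for elongation factors and 245.4 and 99.5 FPKM for initiation factors. They were 166.4 and 69.8 FPKM for ribosome-associated genes and 24.9 and 18.0 FPKM for TOR and insulin genes. Elongation and release factors had a median log2 ratio of 0.09 in BG3C2 cells, with 7 of 8 above 0, and of −0.14 in brain, with 7 of 8 below 0. Ef1alpha48D, which delivers aminoacyl-tRNA, had 5584 and 5972 FPKM in BG3C2 cells and 699.1 and 740.4 FPKM in brain. Ef2b, the translocase, had 2259 and 2565 FPKM in the cell line and 841.0 and 777.7 FPKM in brain. Ef1beta had 336.9 and 247.1 FPKM in brain, with a p-value of 0.04895 in the authors' deposited table. Initiation factors had medians of 0.07, with 13 of 18 above 0, and −0.17, with 14 of 18 below 0. The helicase gene eIF-4a was highest among them, with 1471 and 1622 FPKM in BG3C2 cells and 976.1 and 855.9 FPKM in brain. Other genes at a mean of 100 to 500 FPKM had medians of 0.07 and −0.09. Of them 619 of 933 were above 0 in BG3C2 cells and 553 of 757 below 0 in brain. At 500 FPKM or more the medians were 0.14 and −0.11, with 98 of 128 above 0 and 95 of 118 below 0. At 10 to 100 FPKM they were −0.02 and −0.01, with 2285 of 5087 above 0 and 2760 of 5305 below 0. The part of expression level in the lists' shifts was not tested.

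Ribosome-associated genes, such as the scaffold Rack1 and the nascent chain complex gene Nacalpha, had medians of 0.08 and −0.14. Rack1 had 1767 and 1832 FPKM in BG3C2 cells and 765.7 and 630.9 FPKM in brain. Ribosome biogenesis genes had a median of −0.08 in BG3C2 cells, with 22 of 26 below 0. Other genes at a mean of 10 to 100 FPKM had −0.02 there, with 55.1% below 0. In brain the median was −0.07 and 12 of 23 were below 0, near the 51.2% of all tested genes. Among them the box C/D protein gene hoip had 162.1 and 161.1 FPKM and Nop60B, the pseudouridine synthase, 105.5 and 104.9 FPKM in BG3C2 cells. TOR and insulin pathway genes, which control ribosome production, had medians of −0.07 and 0.09. Thor, a repressor of translation initiation, had 155.6 and 143.0 FPKM in BG3C2 cells, and Pi3K92E had 30.4 and 19.1 FPKM in brain with a p-value of 0.0055 and a q-value of 0.41 in the authors' deposited table.

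Chromatin was described with the authors' region lists for BG3C2 cells, which give positions on the dm3 build and, for H3K4me3, a MACS score. By the sample titles, H3K4me3 had 1 control and 1 knockdown sample, so each of its lists rests on 1 sample. A locus was the span that the expression table gives for the gene, and 1 shared base counted as overlap. The members' loci are short, with a median of 1420.5 bp for the 82 genes, and 47 of the 93 overlap another gene's locus, many of them snoRNA genes carried in introns. RpL41 is an exception, with a span of 36636 bp that also holds CG9083, NaCP60E, Tpc2 and pain. The shares in BG3C2 cells are therefore set beside those of 431 other genes at 100 FPKM or more with a locus of up to 3000 bp. These are not matched for level, since their median is 172.9 FPKM in control cells against 2651 FPKM for the 82 members. Of them, 41 were at 500 FPKM or more, with a median of 871.3 FPKM.

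H3K4me3 and H3K27ac, marks of active promoters, covered nearly all of them. H3K4me3 was listed at 80 of the 82 loci, or 97.6% with a 95% Wilson interval of 91.5% to 99.3%, in control and in knockdown cells, and at 92.6% and 93.0% of the other loci. H3K27ac was listed at the same 80 loci in both, and at 92.8% and 92.6% of the other loci. The exceptions for both marks were RpL38 and RpL39. RpL39 lies 336 bp from the next gene of the group, RpL12, on 2R, and the nearest H3K4me3 region of control cells ended 228 bp from it. For RpL38, near the centromere of 2R, the nearest one was 27536 bp away, although the gene had 3567 FPKM. The authors' MACS score stood at 3100 or more for 63 of the 80 members with a control H3K4me3 peak, or 78.8%, against 67.4% of the other genes' and 39.2% of all peaks. Scores gather at that value, so differences among these genes could not be read from them. Only RpS10a was in one H3K4me3 list without the other. It had a region in the control list and shares its span with tau.

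RNA polymerase II was listed at 76 of the 82 loci in control cells, or 92.7%, and at 26 in knockdown cells, or 31.7%. All 26 had a control region as well, and 50 had one in control cells alone. The other genes showed a like step, from 72.2% to 22.7%, and so did the 41 at 500 FPKM or more, from 82.9% to 21.95%. Among all 15163 loci the shares were 50.5% and 43.9%. The knockdown list was the longer one, with 7410 regions against 6776, and 50.3% of the control regions overlapped one of its regions, compared with 94.4% for H3K4me3 and 93.3% for H3K27ac. No sample record given for this work belongs to the Pol II or H3K27ac lists, and the control Pol II list is named for BG3C3, not BG3C2 cells. The log2 ratios of RNA were close with and without a knockdown region. The 50 genes with a control region alone, among them RpS30, RpL29, RpL36A, RpL27A and RpS25, had a median log2 ratio of 0.13 and were all above 0. The 26 with both had 0.12, and 25 of them were above 0. In control cells the medians of these sets were 2529 and 2669 FPKM. Those 26 had the longer loci, with a median of 2285.5 bp against 1227 bp. The 6 genes in neither list were RpL15, RpL27, RpL34a, RpL38, RpL39 and RpS3A. The nearest control region lay only 146 bp from RpL34a and 215 bp from RpL39, and at least 10322 bp from the rest. Of the 6 genes, RpL15 lies in the heterochromatin of the left arm of chromosome 3 and RpS3A on chromosome 4.

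The Wds and Pc lists are labelled as merged. Wds had 1 control and 1 knockdown sample and Pc 2 of each, and the labels do not say which entered the lists. Wds, the WD40 subunit of the complexes that methylate H3K4 (WDR5 in mammals), was listed at 71 of the 82 loci. That is 86.6% with an interval of 77.6% to 92.3%, beside 47.3% with an interval of 42.7% to 52.1% for the 431 other genes and 35.3% of all loci. For the 41 other genes at 500 FPKM or more it was 58.5%, with an interval of 43.4% to 72.2%. Wds regions covered on average 55.8% of a member's locus and 27.9% of the other genes' loci. These intervals cover counting error only, and the difference was not tested. DMAD was listed at 50 of the 82 loci, or 61.0%, beside 51.5% of the other genes. Pc, the chromodomain subunit of Polycomb repressive complex 1, was listed at 47, or 57.3%, beside 51.0%. The intervals for DMAD, from 50.2% to 70.8%, and for Pc, from 46.5% to 67.5%, held the other genes' shares. With at least 50% of a region required inside the locus, Wds was listed at 48.4% of all 93 members and 22.5% of the other genes, and DMAD at 30.1% and 29.0%. Without that requirement the 93 members stood at 80.7% for Wds and 58.1% for DMAD. They include 11 genes under 100 FPKM, while the other genes are all at 100 FPKM or more.

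All 3 proteins were listed at 43 of the 82 loci, or 52.4%, and at 28.8% of the other genes. Wds alone was listed at 21, or 25.6%, beside 8.59%, and none of them at 8, or 9.76%, beside 29.2%. The 8 were RpL21, RpL34a, RpL35, RpL35A, RpL37A, RpL38, RpS10b and RpS3A. The 5 most highly expressed with a DMAD region were RpL41, RpL23A, RpS29, RpL29 and RpL36A. For Wds they were RpL41, RpL39, RpL23A, RpS29 and RpS30, and for Pc RpL41, RpL23A, RpS29, RpL36A and RpL27A. The median log2 ratio of BG3C2 cells was 0.13 for the 43 genes with all of them, 0.15 for the 21 with Wds alone and 0.13 for the 8 with none. In brain it was −0.29, −0.31 and −0.23 for the same genes.

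**Figure D4:**
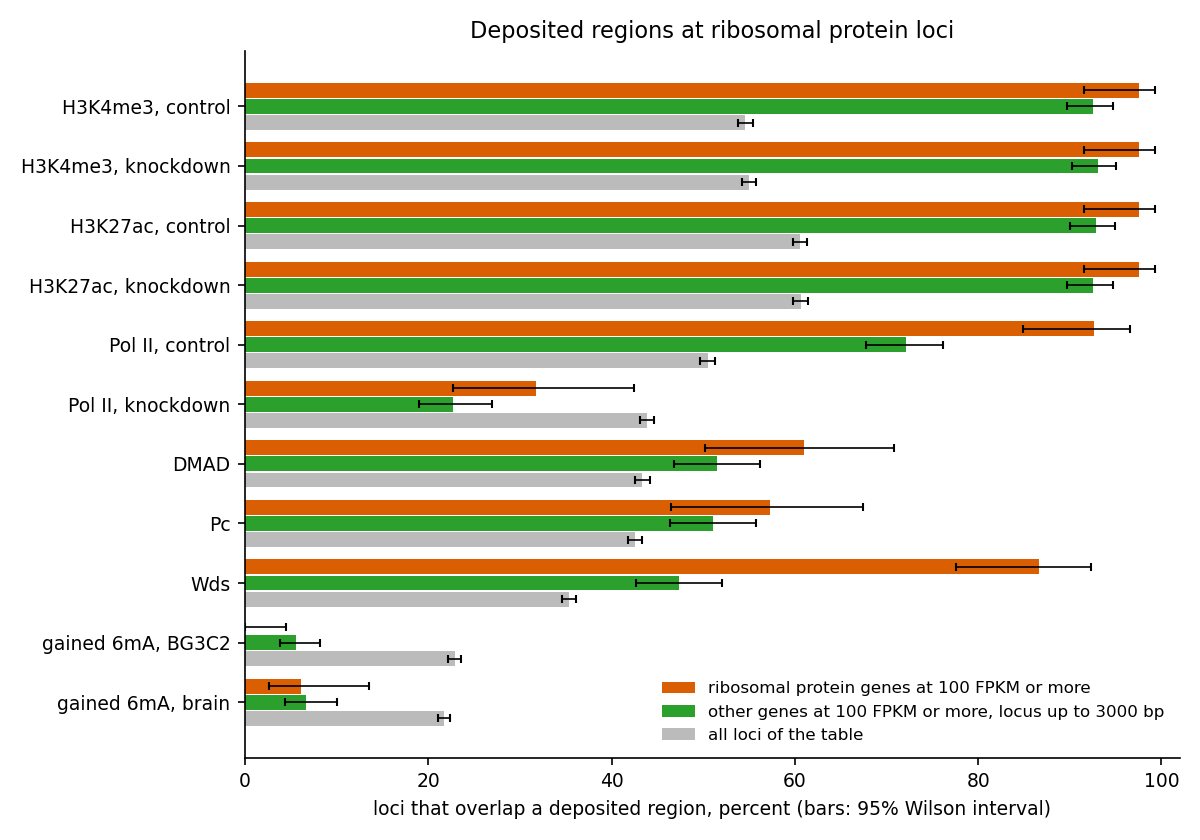
Share of loci that overlap a region of each deposited list (x axis, percent) for the 82 ribosomal protein genes at 100 FPKM or more (orange), other genes at 100 FPKM or more with a locus up to 3000 bp (green) and all loci of the table (grey), with 95% Wilson intervals. The widest gap between orange and green is that for Wds, at 86.6% against 47.3%, and no member has a gained 6mA region in BG3C2 cells.

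Regions that gained 6mA after loss of DMAD overlapped no ribosomal protein locus in BG3C2 cells and 6 in brain. None of the 93 loci overlapped one of the 6093 windows gained in knockdown BG3C2 cells. Of all loci 22.9% did, but of all loci up to 3000 bp only 3.95%, and of the 431 other genes 5.57%. With a count of 0 the Wilson interval over 93 loci ran up to 3.97%. That barely takes in the share of short loci in general and does not take in that of the 431 other genes. The interval of those other genes, from 3.77% to 8.15%, overlaps the members' interval. The loci of the 82 members at 100 FPKM or more were also shorter, with a median of 1420.5 bp against 1724 bp over 430 of the other genes. Some members, such as RpL41, have loci longer than 3000 bp, and the difference was not tested. With loci extended by 1000 bp, 3 members had a window, or 3.23%, beside 10.2% of the other genes. The median distance from a member to the nearest window was 13369 bp, and 24.7% of members had one within 5000 bp, beside 25.1% of the other genes.

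In brain 6 of the 93 loci, or 6.45%, overlapped one of the 5340 regions gained in the knockout. Of the 82 members at 100 FPKM or more 5 did, or 6.10%. The share was 6.62% of 302 other genes at 100 FPKM or more in control brain with a locus of up to 3000 bp. It was 3.10% of all loci up to 3000 bp. The members were not limited in length, and the loci of RpL41 and RpS10a are longer than 3000 bp. With loci extended by 1000 bp the shares were 11.8% of the 93 members and 11.9% of the 302 other genes. In 4 of the 6 loci the region lay wholly inside the gene's own span and touched no other gene. They were RpL24 at chr2L:13394329-13394846, RpS2 at chr2L:9896658-9897157, RpS26 at chr2L:18442586-18443171 and RpL26 at chr3L:18892355-18892868, all on dm3. The lists give no strand and no exons, so the part of the gene was not assigned. RpL26 had 969.6 FPKM in control and 750.0 FPKM in knockout brain, RpS26 had 1319 and 1060 FPKM, RpS2 had 915.6 and 761.4 FPKM, and RpL24 had 847.8 and 700.8 FPKM. Their log2 ratios of −0.37, −0.32, −0.27 and −0.27 lay on both sides of the median of −0.30 for all members. The regions at RpL41 and RpS10a fell in spans shared with other genes, NaCP60E and tau among them. By the sample titles the brain list rests on 1 control and 1 knockout 6mA sample.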

How the data were processed

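Per the labels' protocols, RNA libraries were read by 50-cycle paired-end and genomic libraries by 50-cycle single-end sequencing. Per the submitters' processing notes the build was dm3, RNA tools were TopHat2 2.0.8 with Cuffdiff 2.2.1, and MACS 1.4.2 and Bowtie 0.12.9 are listed besides, all with no settings. The authors' deposited tables hold 1 Cuffdiff FPKM per gene and group, a log2 fold change, a p-value and a q-value. Read depth per sample is unknown, so no interval was given for an FPKM. The deposited region lists hold positions and, for H3K4me3, the authors' MACS score.

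Log2 ratios were recomputed from FPKM in pandas 2.3.3 and differed from the deposited log2 values by at most 1.48e-05. Only genes with test status OK were counted as tested. Without values per sample no test of differences was possible here, so every p-value and q-value is the authors' own, and since no label says that samples came from separate cultures or animals they may measure technical spread. Overlaps needed 1 base. Wilson intervals are at 95% and cover counting error only. Overlap counting and medians were tested on simulated data.

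The members, the gene lists and the strata of FPKM and locus length were chosen with earlier results of these data known. Named genes were the 8 highest per table, the 5 highest and 5 lowest log2 ratios, those past an unadjusted 0.05 in the authors' tables, members of paralog pairs, untested members, genes behind short region lists (otherwise the 5 with the highest control FPKM), and in other lists the called or the 3 highest genes, of which only examples are given. A few genes that this rule names are not reported here. A description of promoter motifs was planned and not made, because no promoter sequence was used here. Of the 93 symbols, 91 were current in the reference gene tables and 1 was a synonym.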

Additional observations from a re-analysis of the deposited data

How the results depend on the processing

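No paired analysis was possible because each table holds 1 pooled value per group, and for the same reason no sample could be left out. Of the settings tried on the medians, the counts and the shares of members with a region, 37 left the value close to that reported and 18 moved it. Dividing by each group's summed FPKM moved the members' median log2 ratio to 0.011 in BG3C2 cells, with 50 members above 0, and to −0.18 in brain, and it put RpL18 in BG3C2 cells at −0.064. Counting unadjusted p-values gave 2 members in brain. Both pseudocounts, centring on all genes, the limit of 100 FPKM and leaving out lower copies moved neither median by over 1.5 times.

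Requiring 50% of a region inside the locus lowered the share of all 93 members with H3K4me3 to 77.4% in control and 62.4% in knockdown cells, with H3K27ac to 79.6% and 78.5%, with Pol II to 57.0% and 20.4%, with DMAD to 30.1% and with Wds to 48.4%, from 86.0% and 30.1% for Pol II, 58.1% for DMAD and 80.7% for Wds. Extending loci by 1000 bp raised Pol II to 92.5% and 48.4%. Over the 46 loci that overlap no other, DMAD stood at 41.3% and Wds at 69.6%. The upper 50% of H3K4me3 peaks by score reached 78.5% and 77.4% of members. The cause of these moves was not tested, apart from fewer regions or loci qualifying by construction. Pooled values with unknown depth limit all RNA results.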
